A study of Mus musculus with 6 samples.

Results

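The genes described here are the nuclear genes for subunits of the mitochondrial respiratory chain and ATP synthase, as the MOE430_2 mouse array measures them. They were chosen by symbol from probe sets whose annotation names exactly 1 gene (Ndufa, Ndufb, Ndufc, Ndufs and Ndufv genes, Sdha to Sdhd, Uqcr genes, Cox4 to Cox8 genes and Atp5 genes, without Ndufa4l2 and Cox8b). Where a gene had several probe sets, the brightest by its 6-array mean was taken. The rule gave 79 of the 18193 genes measured, with 34 in complex I, 4 in complex II, 8 in complex III, 16 in complex IV and 17 in complex V. Ndufa11, Ndufs6 and some related symbols appear here only on probe sets shared with other genes and were not included. Ndufa4 is counted in complex I by its symbol, although it is now known to be bound to complex IV.

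The study compared 3 arrays of Ebf2-positive cells with 3 arrays of Ebf2-negative cells. Both groups were fresh bone marrow cells of wild-type C57BL/6 mice that had received no treatment, and both were sorted as CD45-TER119-CD31-, that is, without the surface markers of leukocytes, erythroid cells and endothelium. Ebf2 is a transcription factor of the early B-cell factor family that is known from immature mesenchymal cells. Each RNA sample came from 1000 or 2000 cells and was amplified in a dual round. Neither the way Ebf2 was detected during sorting nor the cell number behind each array is given in the labels. The labels do not say that replicates came from separate animals, so p-values reflect only the spread among these 6 arrays, possibly a technical one.

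Complexes I and II pass electrons from NADH and succinate to ubiquinone, complex III passes them to cytochrome c, and complex IV passes them to oxygen. Complexes I, III and IV pump protons across the inner mitochondrial membrane while they do so, and complex V, the ATP synthase, uses the returning protons to make ATP. Most subunits are encoded in the nucleus, a few in mitochondrial DNA, and some complex IV subunits exist as isoforms for different tissues. In bone marrow, dividing progenitors and erythroid precursors are known to be rich in mitochondria, whereas stem cells and mesenchymal progenitors are known to rely much on glycolysis.

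All values below are log2 of the deposited RMA signal, differences are Ebf2-positive minus Ebf2-negative, and a gene was called when limma's adjusted p (Benjamini-Hochberg over all 18193 genes) was under 0.05. Ebf2 itself averaged 8.33 ± 0.41 in Ebf2-positive, against 3.66 ± 0.49 in Ebf2-negative cells (SD, n = 3 each), a difference of 4.67 (adjusted p = 0.000476). Of the genes for the sort markers, Ptprc (CD45) averaged 5.68 ± 1.81 in Ebf2-positive, against 8.33 ± 0.41 in Ebf2-negative cells (adjusted p = 0.0698), and Pecam1 (CD31) 3.57 ± 0.52 in Ebf2-positive, against 3.01 ± 0.70 in Ebf2-negative cells (adjusted p = 0.403). Arrays correlated at 0.919 to 0.924 among the Ebf2-positive, 0.968 to 0.977 among the Ebf2-negative and 0.825 to 0.873 between the groups. Both arrays numbered 1 had the highest ratio of 3′ to 5′ signal for Gapdh, a measure of RNA length, at 25.4 against 8.45 and 9.99 within the Ebf2-positive group and at 27.6 against 11.2 and 10.9 within the Ebf2-negative group. The Ebf2-negative arrays also carried far more signal of erythroid and dividing-cell genes, as given below.

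The mean signal over the subunit genes was lower in Ebf2-positive than in Ebf2-negative cells in all 5 complexes, though not every gene was lower. In complex IV 5 of 16 differences were above 0. Its median difference was -0.32, against -0.42 over all genes with a mean log2 signal of at least 7. Of the 79 members, 26 fell, 0 rose and 53 were not called, at a background of 13.6% of all genes called lower and 10.8% called higher. At an unadjusted p under 0.05 in the same limma fit, 43 members were lower (20, 3, 5, 5 and 10 in complexes I to V) and 2 higher, both of complex IV. At that threshold 3593 of all 18193 genes were lower and 2951 higher. Of the 4735 genes with a mean log2 signal of at least 7, 1782 were lower, against 41 of the 69 such members. Without regard to the test, 72 of the 79 differences were below 0, against 44.8% of all genes, and 27 were at -1 or below, against 17.8% of all genes. The median difference over the members was -0.78 (quartiles -1.19 and -0.47), against 0.07 over all genes. In bulk samples such as these, fewer cells of a type and less RNA per cell cannot be told apart.

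Most members are bright, and bright genes as a whole were more often lower. A mean log2 signal of at least 7 was reached by 69 members, of which 67 were below 0, against 62.4% of the 4735 genes of that brightness, whose median difference was -0.42. A difference of -1 or below was found for 25 of the 69 (36.2%), against 31.4% of the 4735. In the fit over all genes 25 of the 69 (36.2%) were called lower, against 26.8% of the 4735. Fitted among those bright genes alone, 31 of the 69 (44.9%) fell and 0 rose, at a background of 32.4% lower and 18.4% higher. The 10 dimmer members (Ndufb1, Ndufs5, Ndufb4, Cox6b2, Cox7c, Cox7b2, Cox4i2, Cox8c, Cox6a2 and Cox7a1) were split evenly, with 5 below 0 and 5 above 0.

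The groups did not overlap for 45 members that were lower and for 2 that were higher, at a background of 21.2% and 21.8% of all genes. Of the 69 members with a mean of at least 7, 43 (62.3%) were lower without overlap, against 39.8% of all genes of that brightness. Across the 79 members the mean signal was 8.35, 8.86 and 8.70 on Ebf2-positive arrays 1 to 3, against 9.17, 9.59 and 9.67 on Ebf2-negative arrays 1 to 3. Every Ebf2-positive array lay below every Ebf2-negative array, and in both groups array 1 was the lowest. Ebf2-positive array 1 held the group's lowest value for 48 of the members (60.8%, against 34.4% of all genes), and Ebf2-negative array 1 for 57 (72.2%, against 42.6%). These are the arrays with the highest Gapdh 3′ to 5′ ratios. Without both of them, 73 members were below 0 with a median of -0.81. In that fit 12 (15.2%) were called lower, against 7.29% of all genes, and 8 of these were among the 26 called with all arrays.

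The number of calls rested on single arrays more than the direction did. The 26 became 17 without Ebf2-positive replicate 1, 10 when Ebf2-negative replicate 2 was left out and 8 for Ebf2-negative replicate 3. In those fits, in that order, 21.5%, 12.7% and 10.1% of the members were called lower, against 12.2%, 9.11% and 7.67% of all genes. Across all 6 fits that left out an array, 7.67% to 13.6% of all genes were called lower. The members below 0 numbered 68 to 76 when any single array was left out. Ndufa9, Uqcrc2, Cox6b2, Cox5a, Atp5pb and Atp5b, which are 6 of the 26, stayed called without each of the 6 arrays in turn. A test for a difference larger than 1 kept only Cox6b2, at a background of 3.62%. After centring on the poly-A control probe sets the median of all genes moved to -2.41 and 78 of the 79 members were called lower, at a background of 85.7%. This centring moves every gene's difference by the same -2.48. The members' median therefore lay 0.85 below that of all genes by construction, as before centring, and this gap is no check of the result. A further quantile normalization reduced the count to 15, at a background of 11.2%, with 69 members below 0.

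**Figure D1:**
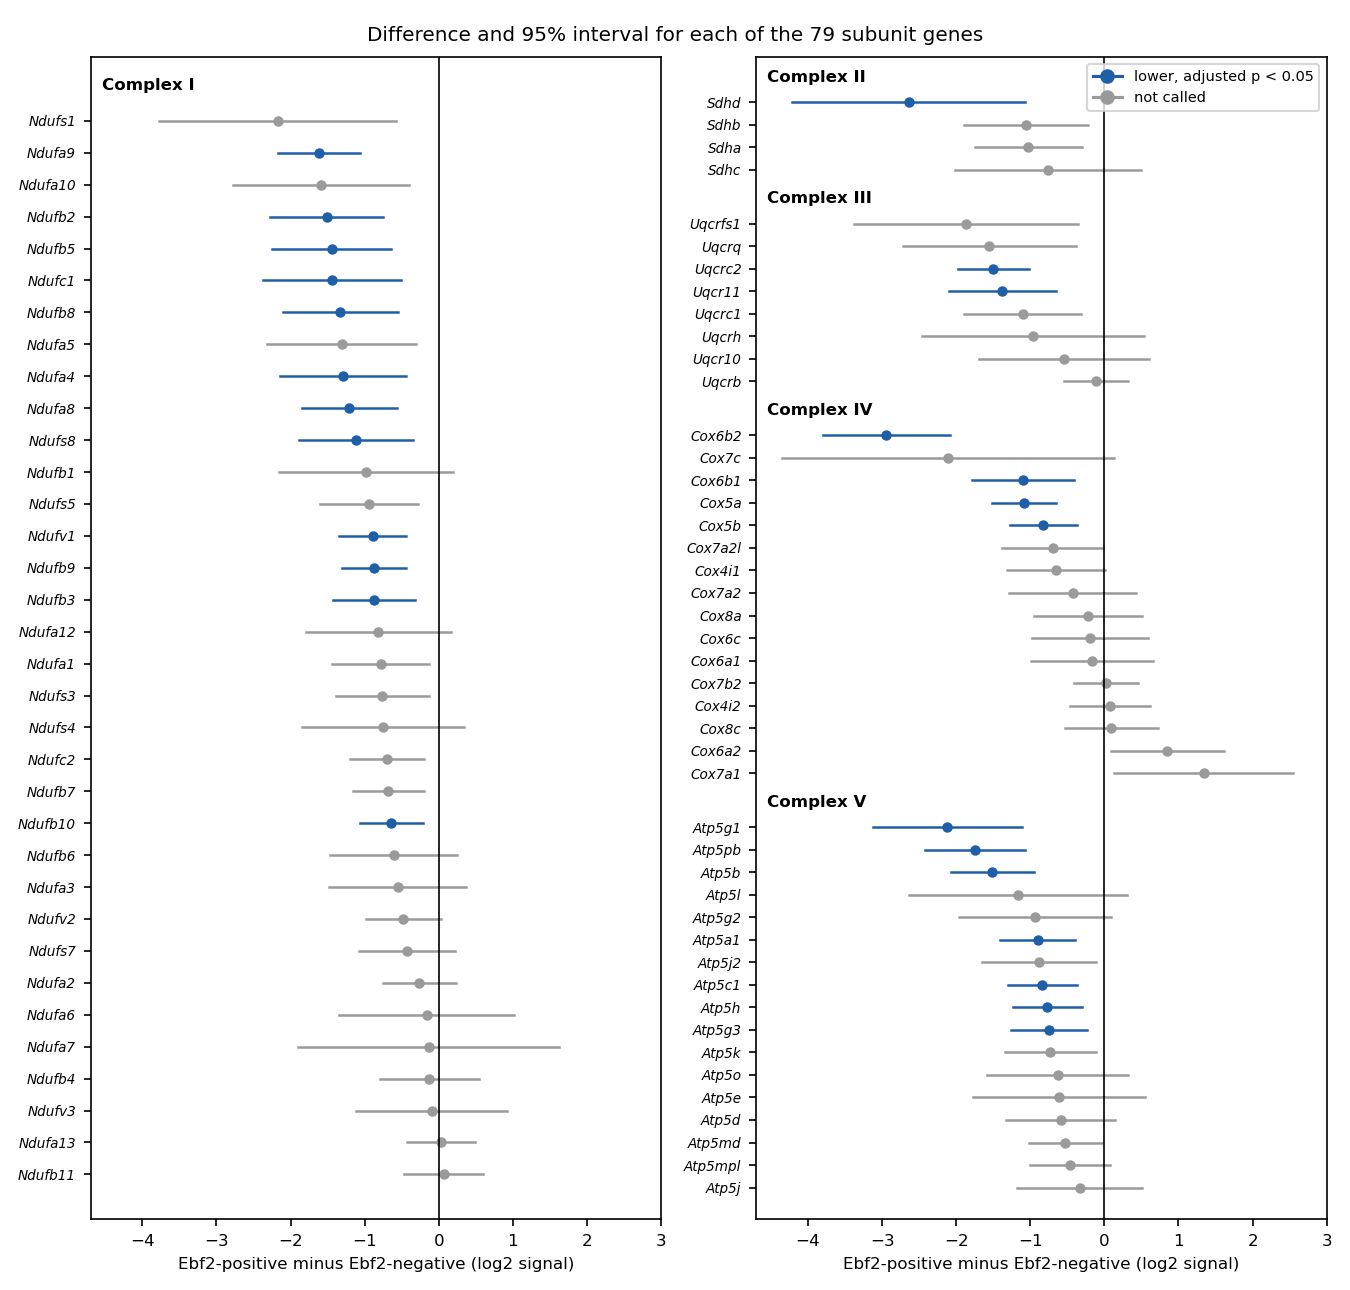
Difference in log2 signal (Ebf2-positive minus Ebf2-negative, x axis) with its 95% interval for each of the 79 genes, listed by complex from the lowest difference; blue marks the 26 genes called lower and grey the 53 not called. Most points lie left of 0, with Cox6a2 and Cox7a1 furthest to the right, and centring on the poly-A controls moves every point left by 2.48, which puts all 79 below 0.

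Markers of other cells moved with this difference. Of 11 measured erythroid markers 10 fell, with a summed linear signal of 564 to 1009 on the Ebf2-positive arrays and 14378 to 16091 on the Ebf2-negative arrays. Of 11 measured genes of dividing cells 10 fell, with sums of 460 to 1307 on the Ebf2-positive and 10555 to 11386 on the Ebf2-negative arrays. Of 10 leukocyte genes 4 fell (1 without Ebf2-negative replicate 3, 8 without Ebf2-positive replicate 2), with sums of 704 to 1181 on the Ebf2-positive arrays, against 2171 to 3617 on the Ebf2-negative arrays. Conversely, 8 of 10 genes of mesenchymal stroma and 8 of 8 mural-cell genes rose. Of 8 endothelial genes 1 rose, and of 5 measured brown fat genes 1, with all differences of both lists above 0. Brown fat genes were dim, with means under 5 for 4 of the 5 in Ebf2-positive and all 5 in Ebf2-negative cells. RMA gives no value of 0, but the mean was under 5 in Ebf2-positive cells for 6 erythroid and 5 dividing-cell markers and in Ebf2-negative cells for 1 and 0 of them. The part of these cells in the lower signal of the subunit genes was not tested.

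**Figure D2:**
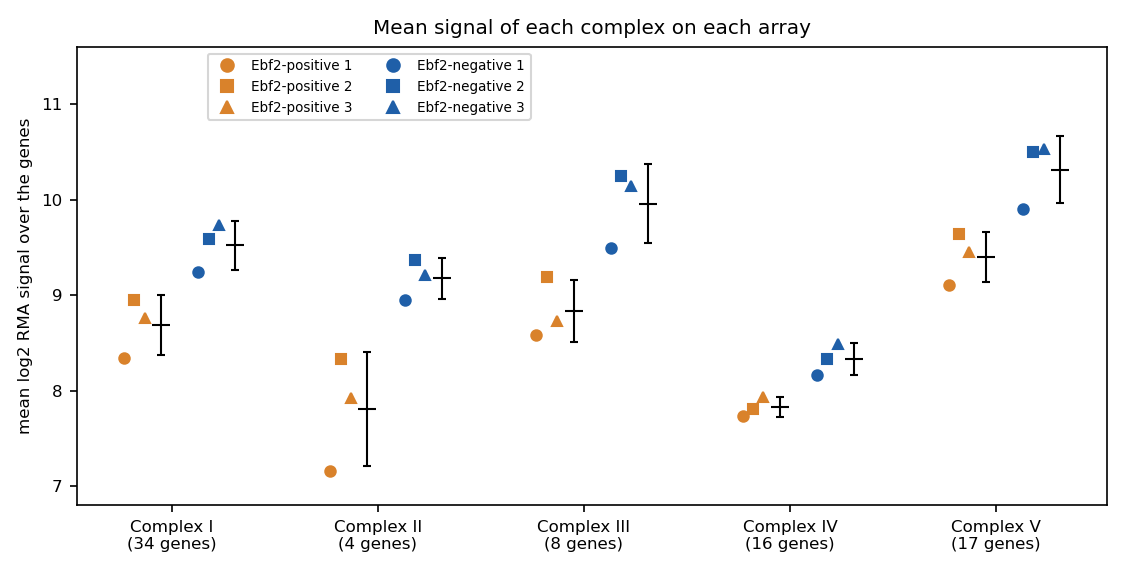
Mean log2 RMA signal over the genes of each complex (y axis) on each array, with Ebf2-positive arrays in orange left of Ebf2-negative arrays in blue, symbols by replicate number, and the mean ± SD of each group in black. In all 5 complexes the 3 Ebf2-positive arrays lie below the 3 Ebf2-negative arrays; since probe sets differ in response, heights cannot be compared between complexes.

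Complex I, the NADH dehydrogenase, had 12 of 34 genes lower and 0 higher, with a median difference of -0.80 and 32 differences below 0. The 12 were 35.3% of the complex, against 13.6% of all genes and 26.8% of all genes with a mean of at least 7. The mean over its genes was 8.34, 8.95 and 8.76 on the Ebf2-positive arrays, against 9.24, 9.59 and 9.74 on the Ebf2-negative arrays. The genes that fell were spread over the complex. They included 2 of the 6 measured nuclear-encoded core subunits, 7 of 13 Ndufb and Ndufc subunits, which line the membrane arm, and 3 of 15 other supernumerary subunits. The count of 12 became 6 without Ebf2-positive replicate 1, and 6, 3 and 2 when Ebf2-negative replicates 1, 2 and 3 were each left out. Of all genes, 12.2%, 8.72%, 9.11% and 7.67% were called lower in those fits. Without Ebf2-negative replicate 2 or 3 the share of the complex was thus below that of all genes. A further quantile normalization gave a count of 7, at a background of 11.2%, and leaving out both arrays numbered 1 gave 2, at 7.29%.

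Among the core subunits, Ndufv1, which binds NADH and its flavin, had signals of 9.39, 9.53 and 9.56 in Ebf2-positive cells, against 10.27, 10.29 and 10.59 in Ebf2-negative cells. The 3 Ebf2-positive values lay close together and all were below the Ebf2-negative ones. The difference was -0.89 (SE 0.19, adjusted p = 0.0169), and 2 further probe sets of the gene were also called lower. Without Ebf2-negative replicate 3 its adjusted p was 0.075. Ndufs8, an iron-sulfur subunit on the way to ubiquinone, had 9.39, 10.32 and 9.84 in Ebf2-positive cells, against 10.54, 11.27 and 11.09 in Ebf2-negative cells. The groups were apart, and the difference of -1.12 (SE 0.32) had an adjusted p of 0.0473, which passed only without Ebf2-positive replicate 2 when single arrays were left out. Tested singly, all 6 probe sets of Ndufs8 were not called, with adjusted p from 0.0659 to 0.395. The mean of all its probe sets was not called either (adjusted p = 0.063).

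Ndufs1, the large iron-sulfur subunit that takes electrons from the flavin, had the lowest difference of the complex without being called. Its values were 5.48, 8.20 and 7.57 on the Ebf2-positive arrays, against 9.34, 9.22 and 9.21 on the Ebf2-negative arrays. Array 1 of the Ebf2-positive cells was far below the other two. The difference was -2.18 (SE 0.67, adjusted p = 0.0591), and without that array it was -1.38 with an adjusted p of 0.0178. Ndufs3, at the base of the arm that reaches into the matrix, differed by -0.76 (adjusted p = 0.0828), and Ndufv2, an iron-sulfur partner of Ndufv1, by -0.48 (adjusted p = 0.159), both with groups apart. Ndufs7, which holds the last cluster before ubiquinone, differed by -0.43 with overlapping groups (adjusted p = 0.308).

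Ndufa9, a supernumerary subunit near the joint of the 2 arms, was the called gene of complex I with the largest difference. It had 8.82, 8.34 and 8.72 in Ebf2-positive cells, against 10.48, 10.27 and 9.99 in Ebf2-negative cells. No value of either group came near the other group, and the difference was -1.62 (SE 0.23), or 3.08-fold (adjusted p = 0.0041). Ndufb2 of the membrane arm had 7.04, 7.76 and 6.83 in Ebf2-positive cells, against 8.32, 8.88 and 8.96 in Ebf2-negative cells. Its groups were apart as well, with a difference of -1.51 (SE 0.32, adjusted p = 0.0164), which no longer passed once Ebf2-negative replicate 2 (0.0596) or 3 (0.0691) was left out.

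Ndufb5, also of the membrane arm, had 8.44, 8.87 and 9.49 in Ebf2-positive cells, against 10.02, 10.36 and 10.75 in Ebf2-negative cells. The highest Ebf2-positive array stayed under the lowest Ebf2-negative one. The difference was -1.45 (SE 0.33, adjusted p = 0.0228). It was lost without Ebf2-positive replicate 1 or 2 or Ebf2-negative replicate 2 or 3, with adjusted p from 0.0517 to 0.0865. Ndufa4 had 7.02, 8.37 and 7.62 in Ebf2-positive cells, against 8.80, 8.99 and 9.08 in Ebf2-negative cells. The Ebf2-positive arrays spread more widely yet did not reach the other group, at a difference of -1.29 (SE 0.36, adjusted p = 0.0422). When single arrays were left out, it passed only without Ebf2-positive replicate 2.

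The other called genes of complex I were Ndufc1 (-1.44), Ndufb8 (-1.33), Ndufa8 (-1.21), Ndufb9 (-0.87), Ndufb3 (-0.87) and Ndufb10 (-0.64). Of the 6 fits that left out an array, Ndufa8 and Ndufb9 were each called in 4 and Ndufc1 and Ndufb8 in 2. Ndufb10 was called in 1 of the 6 and Ndufb3 in 0. Of the 22 genes not called, 9 had groups that did not overlap, namely Ndufs1, Ndufs3, Ndufv2, Ndufa10, Ndufa5, Ndufs5, Ndufa1, Ndufc2 and Ndufb7. The other 13 overlapped, with differences between -0.98 for Ndufb1 and 0.0689 for Ndufb11 (Ndufa12, Ndufs4, Ndufb6, Ndufa3, Ndufs7, Ndufa2, Ndufa6, Ndufa7, Ndufb4, Ndufv3 and Ndufa13 in between). Ndufb4 rests on a dim probe set, with a mean of 2.49 in Ebf2-positive, against 2.62 in Ebf2-negative cells.

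Complex II, succinate dehydrogenase, links the citric acid cycle to the chain and has 4 subunits, all measured. All 4 differences were below 0 with a median of -1.04, and 1 was called. That is 25% of the complex, against 13.6% of all genes and 26.8% of all genes with a mean of at least 7. When genes of that brightness were fitted alone, 3 of the 4 fell, at a background of 32.4%. The mean over the genes was 7.16, 8.33 and 7.92 on the Ebf2-positive arrays, against 8.95, 9.37 and 9.21 on the Ebf2-negative arrays. Sdhd, a membrane anchor, had 4.73, 7.43 and 5.78 in Ebf2-positive cells, against 8.93, 8.62 and 8.32 in Ebf2-negative cells. The Ebf2-positive arrays scattered over a wide range, all below the other group. The difference was -2.64 (SE 0.65), or 6.24-fold (adjusted p = 0.0292), and a second probe set was called lower too, at -1.88.

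Without Ebf2-positive replicate 3 or any of the Ebf2-negative arrays, Sdhd had an adjusted p of 0.0728 to 0.1, and complex II then had 0 called genes. Leaving out Ebf2-positive replicate 2 gave 2 called genes. The flavoprotein Sdha, which oxidises succinate, had 9.21, 9.90 and 9.02 in Ebf2-positive cells, against 10.71, 10.42 and 10.09 in Ebf2-negative cells. Those groups did not overlap, but the difference of -1.03 (SE 0.30) had an adjusted p of 0.0513. Sdhb, the iron-sulfur subunit, also had groups apart at -1.06 (SE 0.35, adjusted p = 0.0738). Sdhc, the other anchor, overlapped at -0.76 (adjusted p = 0.353).

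Complex III, cytochrome bc1, had 2 of 8 genes lower, with all 8 differences below 0 and a median of -1.24. The 2 were 25% of the complex, against 13.6% of all genes and 26.8% of all genes with a mean of at least 7. When genes of that brightness were fitted alone, 5 of the 8 fell, at a background of 32.4%. The mean over the genes was 8.58, 9.19 and 8.72 on the Ebf2-positive arrays, against 9.49, 10.24 and 10.15 on the Ebf2-negative arrays. Uqcrc2, a core protein of the matrix side, had 10.28, 10.11 and 9.94 in Ebf2-positive cells, against 11.78, 11.63 and 11.41 in Ebf2-negative cells. Both groups were tight and lay well apart. The difference was -1.50 (SE 0.20), or 2.82-fold (adjusted p = 0.00342), and its second probe set was called lower at -1.66. Uqcr11, a small membrane subunit, had 7.94, 8.32 and 8.57 in Ebf2-positive cells, against 9.14, 10.00 and 9.83 in Ebf2-negative cells.

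For Uqcr11 the groups did not overlap either, at -1.38 (SE 0.30, adjusted p = 0.0186). Its adjusted p was 0.0644 or 0.0765 when Ebf2-negative replicate 2 or 3 was left out, and 1 gene of the complex was then called in each case. Without Ebf2-positive replicate 2 or Ebf2-negative replicate 1 the count was 4. The 6 genes not called included 3 with groups apart: Uqcrfs1, the Rieske iron-sulfur protein (-1.87), Uqcrq (-1.55) and Uqcrc1, the other core protein (-1.10). Uqcrh (-0.96), Uqcr10 (-0.54) and Uqcrb (-0.12) overlapped.

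Complex IV, cytochrome c oxidase, differed from gene to gene, with 4 of 16 genes lower, 0 higher and a median difference of -0.32. The 4 were 25% of the complex, against 13.6% of all genes and 26.8% of all genes with a mean of at least 7. Of its differences 11 were below 0 and 5 above, and 2 genes had every Ebf2-positive array above every Ebf2-negative one. The mean over the genes was 7.74, 7.80 and 7.94 on the Ebf2-positive arrays, against 8.16, 8.33 and 8.49 on the Ebf2-negative arrays. The count of genes lower was 2 when Ebf2-negative replicate 2 or 3 was left out, at backgrounds of 9.11% and 7.67% of all genes. It was also 2 with a further quantile normalization, at a background of 11.2%. Whether complex IV differs in this from the other complexes was not tested.

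Cox5a, a subunit on the matrix side that has 1 form in all tissues, had 11.07, 11.02 and 11.09 in Ebf2-positive cells, against 12.13, 11.997 and 12.32 in Ebf2-negative cells. The Ebf2-positive values were almost the same on all 3 arrays and lay below the other group. The difference was -1.09 (SE 0.18, adjusted p = 0.00704), and 2 further probe sets were called lower, at -1.13 and -1.84. Cox5b, which binds zinc on the same side, also fell, by 0.82 on the log2 scale (adjusted p = 0.0214), and was lost in 3 of the 6 fits without an array. Its other probe sets went both ways, from -1.15 (called lower) to 1.18 (adjusted p = 0.165). Neither Cox6c (-0.19) nor Cox7c (-2.11, measured by a dim and scattered probe set, adjusted p = 0.159) was called, and Cox7b2 was at 1.74 in Ebf2-positive, against 1.72 in Ebf2-negative cells.

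The isoform pair Cox6b1 and Cox6b2 codes for a subunit that faces cytochrome c, with Cox6b2 known as the testis form. Cox6b2 had the lowest difference of all 79 genes, with 4.11, 3.65 and 4.25 in Ebf2-positive cells, against 6.24, 7.21 and 7.40 in Ebf2-negative cells. Its groups were separated by more than their own spread, and the difference was -2.94 (SE 0.36, adjusted p = 0.0025). The fold of 7.69 is not exact, since the Ebf2-positive values are dim. Cox6b1 had 10.25, 10.79 and 11.16 in Ebf2-positive cells, against 11.56, 11.97 and 11.98 in Ebf2-negative cells. It did not overlap either, at -1.10 (SE 0.29, adjusted p = 0.0344), but when single arrays were left out it passed only without Ebf2-positive replicate 3, and a further quantile normalization gave an adjusted p of 0.0504.

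Cox6a2 and Cox7a1, the heart and muscle forms of their subunits, were the members with the highest differences. Cox7a1 had 4.55, 3.92 and 2.54 in Ebf2-positive cells, against 2.12, 2.53 and 2.35 in Ebf2-negative cells. Ebf2-positive array 3 lay barely above the Ebf2-negative arrays, all of them dim, and the difference was 1.34 (SE 0.50, adjusted p = 0.108), whose size is not exact at such dim signals. Cox6a2 had 5.94, 6.42 and 5.24 in Ebf2-positive cells, against 4.95, 5.09 and 5.01 in Ebf2-negative cells. Here too array 3 was the lowest of its group, and the difference was 0.85 (SE 0.32, adjusted p = 0.105).

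Without Ebf2-positive replicate 3 both genes were called higher, Cox7a1 at 1.90 (adjusted p = 0.00896) and Cox6a2 at 1.16 (adjusted p = 0.0217), and they were the only members called higher in any fit that left out 1 array. Centring on the poly-A controls turned their differences to -1.14 and -1.63. Of 10 striated muscle markers 1 rose, Tnnt3, a count that was 0 without Ebf2-positive replicate 3 or any single Ebf2-negative array, and 2 higher and 1 lower without Ebf2-positive replicate 2. Their summed linear signal was 170 to 2127 on the Ebf2-positive and 229 to 460 on the Ebf2-negative arrays, with array 2 highest by mean log2 signal in both groups. Means were under 5 for 6 of the 10 muscle markers in Ebf2-positive cells, against 7 in Ebf2-negative cells. The part of muscle or brown fat RNA in the values of Cox6a2 and Cox7a1 was not tested.

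Their widely expressed counterparts were not called. Cox6a1 averaged 12.19 ± 0.29 in Ebf2-positive, against 12.37 ± 0.59 in Ebf2-negative cells, a difference of -0.17 that was 0.18 after a further quantile normalization. Cox7a2 averaged 10.78 ± 0.18 and Cox7a2l, a homologue that joins complexes III and IV, 10.18 ± 0.23 in Ebf2-positive cells, against 11.21 ± 0.67 for Cox7a2 and 10.88 ± 0.46 for Cox7a2l in Ebf2-negative cells (SD, n = 3 each). Only Cox7a2l of these had groups that did not overlap (-0.70, adjusted p = 0.132).

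Cox4i1, the usual form of the subunit through which ATP slows the enzyme, had 11.02, 11.90 and 11.55 in Ebf2-positive cells, against 11.96, 12.33 and 12.15 in Ebf2-negative cells. The groups came close without overlapping, and the difference of -0.66 (SE 0.27) was not called (adjusted p = 0.141). Cox4i2, the form known from lung and from low oxygen, stayed between 3.04 and 3.60 in Ebf2-positive, against between 3.15 and 3.40 in Ebf2-negative cells. Its difference of 0.0753 turned negative under some settings, as did that of Cox8c, a testis form, at 0.0926. Cox8a, the usual form, overlapped at -0.22 (adjusted p = 0.64).

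**Figure D3:**
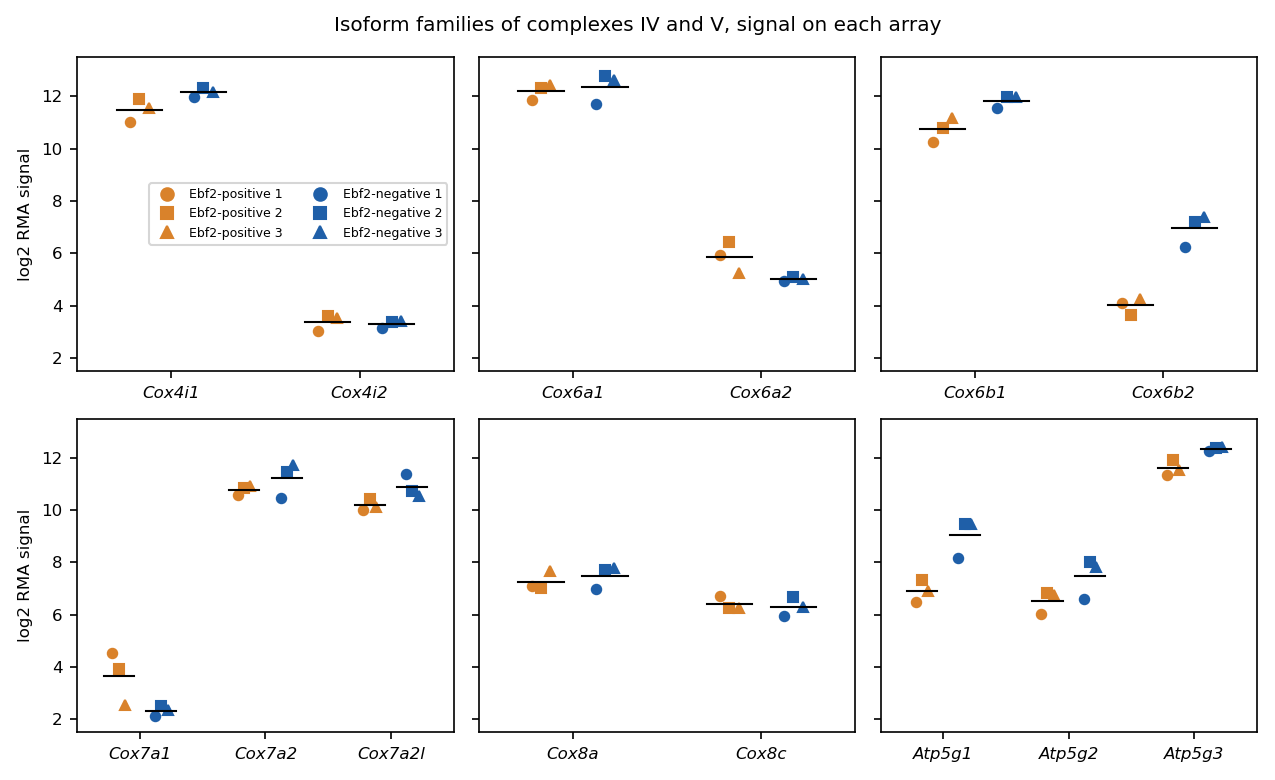
Log2 RMA signal (y axis) of the isoform families of complexes IV and V on each array, with Ebf2-positive arrays in orange left of Ebf2-negative arrays in blue, symbols by replicate number and a line at each group's mean. Cox6b2 and Atp5g1 show the widest gaps with the Ebf2-positive arrays low, while Cox6a2 and Cox7a1 have the Ebf2-positive arrays high, a direction that centring on the poly-A controls turns round.

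Complex V, the ATP synthase, had 7 of 17 genes lower, 0 higher and all 17 differences below 0, with a median of -0.77. The 7 were 41.2% of the complex, against 13.6% of all genes and 26.8% of all genes with a mean of at least 7. Its genes averaged 9.11, 9.64 and 9.45 on the Ebf2-positive arrays, against 9.91, 10.50 and 10.53 on the Ebf2-negative arrays. The genes that fell were 3 of 5 for the catalytic F1 head, 2 of 4 for the stalk that holds the head still, 2 of 3 for the rotating c-ring and 0 of 5 for other membrane subunits. The count was 4 without Ebf2-positive replicate 3 or Ebf2-negative replicate 2, and 3 when Ebf2-negative replicate 3 was left out.

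In the head, Atp5b, the beta subunit that makes ATP, had 10.21, 10.83 and 10.68 in Ebf2-positive cells, against 12.07, 12.26 and 11.94 in Ebf2-negative cells. Every Ebf2-positive array was more than 1 below every Ebf2-negative array on this scale. The difference was -1.51 (SE 0.23), or 2.85-fold (adjusted p = 0.00533). Atp5a1, the alpha subunit that alternates with beta, differed by -0.90 (adjusted p = 0.0248), and Atp5c1, the gamma shaft that turns inside the head, by -0.84 (adjusted p = 0.0226). Both were called in 3 of the 6 fits that left out an array. Atp5d (-0.59) and Atp5e (-0.61), which code for the delta and epsilon subunits of the shaft, were not called.

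In the peripheral stalk, Atp5pb, the membrane-anchored b subunit, had 8.67, 9.49 and 9.55 in Ebf2-positive cells, against 11.002, 10.99 and 10.95 in Ebf2-negative cells. The Ebf2-negative values were almost identical and far above the other group. The difference was -1.75 (SE 0.28), or 3.36-fold (adjusted p = 0.00608), and its second probe set was called lower at -2.10. Atp5h, the d subunit, fell by 0.77 on the log2 scale (adjusted p = 0.0311) and passed in 1 of the 6 fits without an array. Atp5o, the subunit that ties the stalk to the head, and Atp5j, the coupling factor, overlapped at -0.63 and -0.33.

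The 3 c-ring genes code for the same mature protein with different import signals. Atp5g1 had 6.49, 7.34 and 6.91 in Ebf2-positive cells, against 8.18, 9.47 and 9.45 in Ebf2-negative cells. Its groups were apart, with Ebf2-negative array 1 nearest to the Ebf2-positive ones, and the difference was -2.12 (SE 0.42), or 4.35-fold (adjusted p = 0.0132). A second probe set of Atp5g1, dim at 2.58 in Ebf2-positive, against 2.57 in Ebf2-negative cells, differed by 0.00883, the mean of both probe sets was not called (adjusted p = 0.0757), and leaving out Ebf2-negative replicate 3 ended the call (0.0555). Atp5g3 had 11.35, 11.92 and 11.52 in Ebf2-positive cells, against 12.25, 12.39 and 12.40 in Ebf2-negative cells.

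The Atp5g3 groups did not overlap, but the difference of -0.75 (SE 0.21) was near the threshold at an adjusted p of 0.0479, which passed only without Ebf2-positive replicate 2 when single arrays were left out. Atp5g2 overlapped at -0.94 (adjusted p = 0.173). Without Ebf2-negative replicate 1, its lowest array, Atp5g2 differed by -1.37 (adjusted p = 0.0453). The other membrane subunits Atp5l (-1.17), Atp5j2 (-0.88), Atp5k (-0.73), Atp5md (-0.53) and Atp5mpl (-0.46) were not called, and Atp5j2, Atp5k and Atp5md among them had groups apart.

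Probe sets not used above showed the same direction where they were bright. The 79 genes had 162 probe sets, of which 33 were called lower and 0 higher among all 45037 tested singly, at a background of 8.76% lower and 6.39% higher. That background is over probe sets of any brightness. The probe sets used above for Ndufc1, Atp5g3, Ndufa4 and Ndufs8 were not called in this fit, with adjusted p from 0.0570 to 0.0659. Of the 83 not used above, 43 had a mean of at least 7, and all 43 were below 0, with 10 called. The other 40 were dimmer, with 22 below 0. Of 17 called genes that had another probe set, 8 had another that was called lower.

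Respiratory chain genes share some regulators, and short motifs known to bind these were looked for in the RefSeq promoter windows (assembly GRCm38.p6), which run 250 bases before to 50 bases after each gene's start. Windows were found for 65 of the 79 genes and for 23 of the 26 called. The letters searched, on both strands, were GCGCA joined to its own reverse complement for NRF1, CCGGAAGT for ETS factors such as GABP, AAGATGGC for YY1 and TCAAGGTCA for estrogen-related receptors, and no matches overlapped. At least 1 of these 4 was found in 20 of 65 members (30.8%), against 8.67% of all 27025 windows and 19.8% of those of array genes with a mean of at least 7. Among members the share was 34.8% (8 of 23) in those called and 28.6% (12 of 42) in those not called. The stretches below show the match, in capitals, in each of the 8 called genes with one, read 5′ to 3′ along the gene, and each gene lies on the minus strand.
Ndufa9, YY1 letters, chr6:126849097-126849126: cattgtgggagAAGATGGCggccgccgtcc
Ndufc1, YY1 letters, chr3:51408915-51408944: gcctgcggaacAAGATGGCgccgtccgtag
Ndufb8, YY1 letters, chr19:44555393-44555415: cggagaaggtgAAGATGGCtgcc
Atp5pb, YY1 letters reversed, chr3:105959248-105959277: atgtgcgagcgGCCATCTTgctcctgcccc
Uqcr11, ETS letters, chr10:80406869-80406898: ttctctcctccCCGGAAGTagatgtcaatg
Atp5h, ETS letters reversed, chr11:115419940-115419969: ccaaggagagaACTTCCGGcaactctcttc
Sdhd, estrogen-related receptor letters reversed, chr9:50603800-50603824: gggttgtagagTGACCTTGAgccct
Atp5g3, estrogen-related receptor letters reversed, chr2:73911360-73911389: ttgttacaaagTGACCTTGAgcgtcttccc

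By motif, the YY1 letters were in 13.8% of members, against 3.19% of all windows and 6.62% of those of array genes with a mean of at least 7. The ETS letters were in 7.69% of members, above the 4.31% of all windows and below the 10.8% of the bright array genes. The NRF1 letters were in 6.15% of members (1.07% of all windows, 3.02% of the bright array genes) and the estrogen-related receptor letters in 3.08% (0.466% and 0.256%). The NRF1 letters were in 4 members, Uqcrc1, Cox6a1, Atp5g2 and Atp5k, of which 0 were called. GGGCGG, the letters of the common Sp1 site, were in 43.1% of members, against 38.2% of all windows and 73.5% of those of array genes with a mean of at least 7. The YY1 letters hold ATG, and in Ndufa9, Ndufc1 and Ndufb8 they lie after the gene's start. A match is a description of the letters and not evidence of binding.

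In 8 lists of other nuclear genes for mitochondria, 23.3% to 64.7% of the measured genes of a list fell, at the same background of 13.6% over all genes. Of all genes with a mean of at least 7, 26.8% fell in the same fit. The share of listed genes that bright ran from 3 of 14 (complex I assembly) to 16 of 17 (citric acid cycle and pyruvate dehydrogenase). Among 17 measured genes of the citric acid cycle and pyruvate dehydrogenase 11 fell and 0 rose (median -1.12), which became 7 and 6 without Ebf2-negative replicates 2 and 3. Dld, the dehydrogenase shared by several of these complexes, averaged 6.27 ± 0.54 in Ebf2-positive, against 8.81 ± 0.54 in Ebf2-negative cells (SD, n = 3 each). Idh3a, of isocitrate dehydrogenase, averaged 8.03 ± 0.67 in Ebf2-positive, against 10.57 ± 0.0349 in Ebf2-negative cells. The differences were -2.54 (adjusted p = 0.00512) for Dld and -2.54 (adjusted p = 0.00358) for Idh3a.

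Assembly factors put the subunits together, and 6 of 14 for complex I fell (median -1.04), as did 7 of 30 for complexes II to V (median -0.92), with 0 higher in either list. Nubpl, which delivers iron-sulfur clusters to complex I, averaged 3.73 ± 0.43 in Ebf2-positive, against 7.69 ± 0.36 in Ebf2-negative cells, a difference of -3.96 (adjusted p = 0.000572), and Ndufaf6 differed by -3.34. Coa5 (-2.42) and Cmc1 (-2.13), both of complex IV assembly, had the largest differences among the called genes of the second list. Without Ebf2-negative replicates 1, 2 and 3 the count for complex I was 2, 3 and 2, and without Ebf2-negative replicates 2 and 3 that for complexes II to V was 4 and 4.

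Of 17 genes for electron carriers and coenzyme Q 5 fell and 0 rose (median -0.94), among them Coq3, a methyltransferase of coenzyme Q synthesis (-2.32), and Cycs, cytochrome c (-1.34). That count was 2, 1 and 0 without Ebf2-negative replicates 1, 2 and 3, 3 without Ebf2-positive replicate 1 and 9 without Ebf2-positive replicate 2. Cyc1, the cytochrome c1 of complex III whose symbol the rule does not take in, fell by 1.16 on the log2 scale (adjusted p = 0.0133). Of 16 genes for mitochondrial DNA upkeep and biogenesis 8 fell (5 without Ebf2-negative replicate 1 or 3) and 0 rose (median -1.01), with Tfb1m, an rRNA methyltransferase (-2.98), and Lrpprc, which stabilises mitochondrial mRNA (-2.50), furthest down among those called.

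Protein import had 11 of 20 genes lower and 0 higher, with all 20 below 0 and a median of -1.59. Timm8a1, a chaperone of the intermembrane space, differed by -3.73 (adjusted p = 0.0134), and Hspe1, the partner of the matrix chaperonin, by -2.76 (adjusted p = 0.00261). Cristae and supercomplex factors had 5 of 15 lower, with Phb2, a prohibitin (-1.98), and Crls1, the cardiolipin synthase (-1.93), furthest down among those called. The single gene that rose in any of these lists was Higd1b, a small inner-membrane protein also known from pericytes, which averaged 7.18 ± 0.75 in Ebf2-positive, against 2.68 ± 0.47 in Ebf2-negative cells (difference 4.499, adjusted p = 0.00111). Its size is not exact, since the Ebf2-negative values are dim. Mural-cell genes moved with it, with a summed signal of 16536 to 19100 on the Ebf2-positive and 288 to 650 on the Ebf2-negative arrays, and their part in its value was not tested.

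Exchange of adenine nucleotides and phosphate was the list with a median near 0, at 0.09, with 4 of 11 genes lower and 0 higher (2 and 1 lower without Ebf2-negative replicates 1 and 2). Only 6 of the 11 had a mean log2 signal of at least 5. Of these 6, 5 were below 0, with a median of -0.88, and 4 fell when such genes were fitted alone. Slc25a5, an ADP/ATP carrier, had 10.08, 10.42 and 10.45 in Ebf2-positive cells, against 11.74, 12.24 and 12.13 in Ebf2-negative cells. It fell by 1.72 on the log2 scale (adjusted p = 0.00314), and the outer-membrane channel Vdac2 by 1.59. Slc25a4, the carrier form known from heart and muscle, averaged 10.88 ± 0.18 in Ebf2-positive, against 10.40 ± 0.29 in Ebf2-negative cells and was not called (0.48, adjusted p = 0.184). It is named here after its value was seen, as was Cyc1. Among the listed genes named above, Cyc1, Coq3, Cycs, Tfb1m, Timm8a1, Vdac2 and Crls1 were not called without 1 or more of the Ebf2-negative arrays, and Crls1 also not without Ebf2-positive replicate 1 or 3.

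Of the subunits encoded in mitochondrial DNA only ND5, of complex I, was measured by a probe set of its own. It had 11.65, 11.88 and 11.37 in Ebf2-positive cells, against 11.48, 10.93 and 11.11 in Ebf2-negative cells. The groups overlapped, and the difference of 0.46 (SE 0.24) was not called (adjusted p = 0.222), nor is it a measure of the other mitochondrial transcripts.

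**Figure D4:**
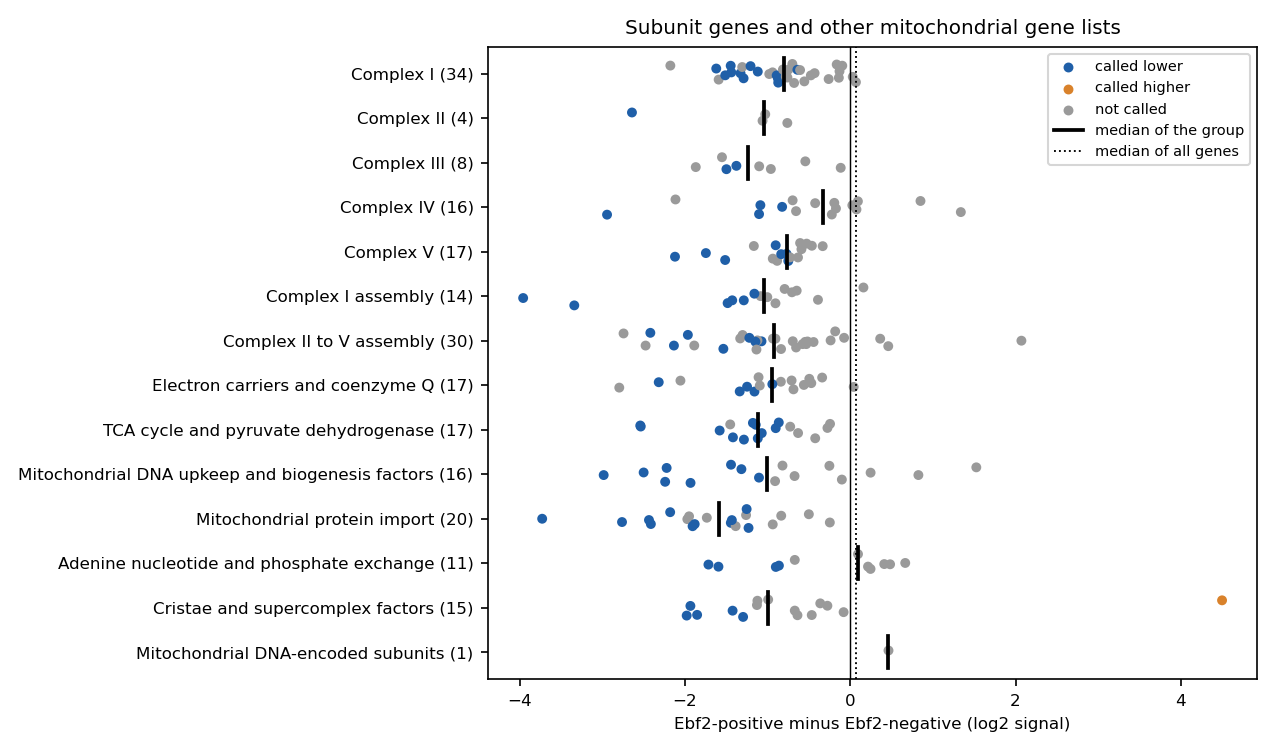
Difference in log2 signal (Ebf2-positive minus Ebf2-negative, x axis) of each gene in complexes I to V and in 9 lists of other mitochondrial genes, with the number of genes in brackets; blue points were called lower, the orange point (Higd1b) higher, grey points were not called, a bar marks each group's median and the dotted line that of all genes. All medians but those of nucleotide and phosphate exchange and of the single mitochondrial DNA-encoded gene lie left of 0, and centring on the poly-A controls moves every point left by 2.48, which puts all medians below 0. Over the 6 exchange genes with a mean of at least 5 alone, the median was -0.88.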

How the data were processed

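RNA of 6 sorted cell samples, 3 per group, was measured on Affymetrix MOE430_2 arrays. The authors deposited linear intensity values, 1 for every probe set on every array, which were computed with RMA per the submitters' processing notes (no version named). RMA corrects background, normalizes quantiles and summarises probes, so a difference in total RNA between groups cannot be seen. They ran between 2.19 and 24894, and log2 of the deposited values was used with nothing added. Amplifying RNA of few cells makes dim genes noisier and weights 3′ ends.

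Of 45101 probe sets, 64 controls were left out. GEO's platform annotation gave exactly 1 gene for 34945, several for 932 and none for 9160; Entrez identifiers of 34741 were found in the RefSeq table of GRCm38.p6, which changed 0 symbols. The comparison used lmFit and eBayes of limma 3.58.1 (R 4.3.3, two-sided); the number of arrays limits its precision. The test was checked on simulated data. Figures used matplotlib 3.10.9 in Python 3.11.15.

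Members with full values were, per complex, up to 3 called genes with the largest difference of each sign (the brightest 2 where fewer than 2 were called), the isoform families, the complex I core, Sdha to Sdhd and Ndufa4; from other lists, up to 2 called genes of each sign. The members, lists, rule and alternatives were chosen with earlier results of these data known. Alternatives were other scalings, filters, probe set choices, variance models, the replicate number as a block and leaving out arrays; leaving out both arrays numbered 1 was added after seeing the data.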

Additional observations from a re-analysis of the deposited data

How the results depend on the processing

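The median difference over the members stayed below 0 under all alternatives that recompute it, and moved by more than the spread between replicates only with poly-A centring, to -3.26. The 26 members lower became 15 with a further quantile normalization, 78 with poly-A centring, 1 with a minimum difference of 1, 11 without both arrays numbered 2, 12 without both arrays numbered 1 (8 of the 26) and 8 to 27 when 1 array was left out; members higher were 0 to 2 in those fits and 0 under the other alternatives. Over all genes 4430 were called, and 15823 with poly-A centring (1.43% of them higher, against 44.3%), 2403 among genes of at least 7, 1433 with a minimum difference of 1, 2449 without both arrays numbered 1 and 2690 to 4348 without 1 array. Signs turned only among genes not called: Cox4i2 was at -0.00733 with a further quantile normalization, -2.40 with poly-A centring and -0.034 to 0.25 when 1 array was left out (negative for Ebf2-positive replicate 2, and -0.00635 for Ebf2-negative replicate 1); Cox6a1 at 0.18 with a further quantile normalization and -0.51 to 0.0337 when 1 array was left out (positive for Ebf2-negative replicate 2); Cox6a2 at -1.63 and Cox7a1 at -1.14 with poly-A centring; Cox8a at 0.00273 without both arrays numbered 2; and Cox8c at -2.39 with poly-A centring, -0.23 without both arrays numbered 1 and -0.079 to 0.28 when 1 array was left out (-0.0614 for Ebf2-positive replicate 1, -0.079 for Ebf2-negative replicate 1). The causes were not tested. Of 719 values of named members under alternatives, 594 kept sign and side of the threshold. The labels do not say that replicate numbers pair arrays, and same-numbered arrays correlated at 0.0547, 0.113 and 0.0344 in their deviations over all probe sets, so they were treated as unpaired. Over the member probe sets the same correlations were 0.226, 0.382 and 0.443, and every array correlated best with its own number, a hint from the data and not the design. With the replicate block 27 members were lower (20 of the 26, background 12.8%), with 2 in complex II and 4 in complex III, and 4219 genes were called; Atp5g3 was not called (adjusted p = 0.0812) and Sdhb was (adjusted p = 0.0331). Dim signal limits the size of differences of Cox4i2, Cox7a1, Cox7b2 and Ndufb4.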
